A study of Mus musculus with 6 samples.

Results

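The Onecut family of the mouse has 3 genes, Onecut1, Onecut2 and Onecut3, and all 3 were followed here by name. They were 3 of the 31028 gene symbols of the RNA matrix, and 1 of them, Onecut2, was among the 8269 genes of the chromatin accessibility matrices. The study profiled embryonic pancreas of C57BL/6 mice by single-cell RNA sequencing at embryonic day 10.5 (E10.5) and by single-nucleus accessibility sequencing (ATAC) at E10.5 and E13.5. WT libraries came from Ptf1a+/+ embryos and KO libraries from embryos homozygous for a deleted Ptf1a enhancer (Ptf1aenh-delta/enh-delta). There were 6 libraries with 1 per genotype, stage and assay, and the sources used here do not say how many embryos went into each. Without replicate libraries no test of genotype was possible. The intervals below are 95% intervals for counting error only and leave out differences between embryos.

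Onecut proteins are transcription factors that bind DNA through a cut domain joined to a homeodomain. Onecut1, also known as hepatocyte nuclear factor 6, acts in the endoderm that gives rise to liver, bile ducts and pancreas, and mice without it form few endocrine cells and abnormal ducts. Onecut2 overlaps with Onecut1 in liver and bile duct development, and Onecut3 is the least studied of the 3. Ptf1a, a basic helix-loop-helix factor, drives the growth of pancreatic progenitors and later the acinar programme.

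Onecut1 lies at chr9:74861921-74889648 and Onecut3 at chr10:80494906-80517266 in GRCm38.p6 (RefSeq). The 250 bases before the Onecut1 start (chr9:74861671-74861920, plus strand) are shown for these reasons. Onecut1 is the paralogue whose RNA differed least between the genotypes in epithelial cells at full depth, and basic helix-loop-helix factors such as Ptf1a read E-boxes. With cells reduced to equal depth that order did not hold, with KO over WT log2 values of -0.60 for Onecut1 and 0.0097 for Onecut3. Capitals mark the 2 matches to the E-box CANNTG.

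Onecut1 promoter: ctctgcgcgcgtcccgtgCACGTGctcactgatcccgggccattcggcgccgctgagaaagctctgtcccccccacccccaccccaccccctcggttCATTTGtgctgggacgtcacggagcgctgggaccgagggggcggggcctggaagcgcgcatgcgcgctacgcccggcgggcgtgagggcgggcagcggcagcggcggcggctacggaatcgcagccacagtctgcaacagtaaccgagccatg

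Its GC content was 71.6%. On either strand, 66.2% of the 32851 RefSeq promoter windows of this length held an E-box. The cut-domain core was searched as ATTGAT, present in 6.72% of the windows, and as ATCGAT, present in 0.728%. The forkhead motif TGTTTAC was present in 3.17%. None of the last 3 was found in the Onecut1 window.

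The RNA libraries held 451 WT and 369 KO cells with at least 1000 detected genes, with 4106604 and 4011819 UMIs (unique molecular identifiers, each marking 1 captured transcript) and medians of 6700 and 9856 UMIs per cell. Ptf1a checked the labels: it had 142 UMIs in WT, 108 of them in the pancreatic progenitor-like cells, and 0 of 4011819 in KO, where 3 UMIs would be 0.748 CPM (counts scaled to a total of 1000000). The cells formed 8 clusters, though the labels name only progenitors. Cluster 1 (111 WT and 37 KO cells) was pancreatic progenitor-like and cluster 5 (20 and 38) hepatobiliary-like, led by Sox17 and Hhex with 5 of 7 endothelial markers also raised. Together they are called epithelial. Clusters 3 (34 and 64), 6 (11 and 35, led by Neurog3) and 7 (12 and 26, led by hormone genes) were endocrine-like. Cluster 0 (152 and 99) was mesenchyme-like. Cluster 4 (27 and 44) was led by mesenchymal genes, but its 17 endocrine markers also summed to 22281 CPM in WT and 15377 CPM in KO, so it is given by number. Cluster 2 (84 and 26), led by histone and cell division genes, stayed unnamed.

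Levels in CPM are summed UMIs relative to all UMIs of the cluster, a scale not divided by transcript length, so each paralogue is described against itself. In WT all 3 genes were concentrated in epithelial cells, which held 41.3% of the library's UMIs but 76.9% of the Onecut1, 64.2% of the Onecut2 and 72.6% of the Onecut3 UMIs. In endocrine-like cells Onecut1 and Onecut3 were at or near 0, and Onecut2 UMIs were found at a level close to that of barcodes with few genes, given further on.

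**Figure D1:**
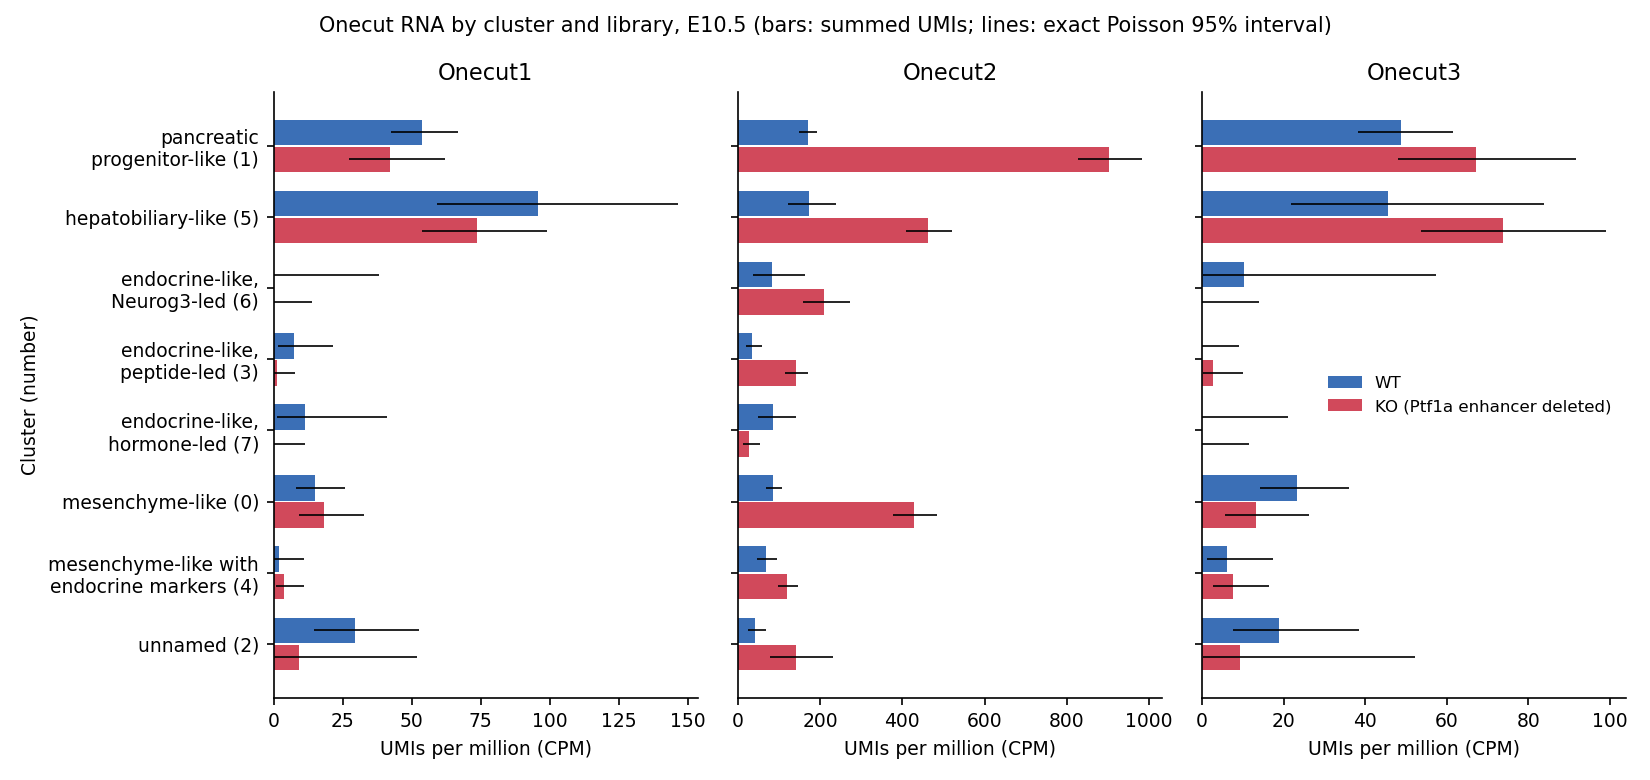
Onecut1, Onecut2 and Onecut3 RNA in CPM (x axes, a different range in each panel) in the 8 RNA clusters at E10.5. Bars are summed counts of 1 WT (blue) and 1 KO (red) library and lines are exact Poisson 95% intervals. Onecut2 reached 903 CPM in KO and 170 CPM in WT pancreatic progenitor-like cells, while the Onecut1 and Onecut3 bars of the 2 genotypes overlapped in their intervals there.

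Onecut1 had its highest level in hepatobiliary-like cells in both libraries. In WT it measured 95.7 CPM (59.2 to 146) there, 53.6 CPM (42.4 to 66.8) in pancreatic progenitor-like cells, 29.4 CPM in the unnamed cluster 2 and 15.2 CPM in mesenchyme-like cluster 0. Each of these neighbours in the order overlapped the next in its interval. The hepatobiliary-like level was 1.79 times the pancreatic one (1.05 to 2.92) in WT and 1.76 times (1.05 to 2.99) in KO, so the values were close in both libraries. With cells thinned to 2000 UMIs the same contrast was 0.085 in WT and 0.21 in KO on the log2 scale, with intervals that include 0, against 0.73 and 0.69 unthinned. In endocrine-like cells Onecut1 had 5 UMIs in 57 WT cells and 1 UMI in 125 KO cells. A UMI of Onecut1 was seen in 7.02% of those WT cells and in 48.1% of the WT epithelial cells.

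Onecut1 summed over the epithelium was close between the genotypes at full depth. It had 100 UMIs in WT (59.0 CPM) and 69 in KO (57.9 CPM), a KO over WT ratio of 0.982 (0.711 to 1.35). The ratio was 0.785 (0.479 to 1.24) in pancreatic progenitor-like and 0.771 (0.449 to 1.37) in hepatobiliary-like cells. These intervals include 1 and are wide, so neither a fall nor a rise within them was detectable at this depth. The epithelial sum mixes the clusters, and 38 of 75 KO against 20 of 131 WT cells were hepatobiliary-like, where Onecut1 was higher. On the log2 scale a median-of-ratios scaling gave -0.19 (-0.57 to 0.20) for the epithelium. Thinning cells to 2000 UMIs gave -0.60 (-1.70 to 0.55). Over all kept cells the Onecut1 level was 31.7 CPM in WT and 21.2 CPM in KO, a ratio of 0.669 (0.503 to 0.886), beside 131 epithelial cells of 451 in WT and 75 of 369 in KO. Fewer epithelial cells and less Onecut1 RNA per cell cannot be told apart in that whole-library value.

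Onecut3 was highest in the same 2 clusters as Onecut1. In WT it measured 48.8 CPM (38.2 to 61.5) in pancreatic progenitor-like and 45.6 CPM (21.9 to 83.8) in hepatobiliary-like cells, followed by 23.3 CPM in mesenchyme-like cluster 0 and 18.7 CPM in cluster 2. The hepatobiliary-like level was 0.933 times the pancreatic one in WT (0.429 to 1.82) and 1.10 times in KO (0.699 to 1.73). Endocrine-like cells held 1 Onecut3 UMI in WT and 2 in KO.

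In the epithelium Onecut3 was somewhat higher in KO, with 82 UMIs in WT (48.4 CPM) and 84 in KO (70.5 CPM), a ratio of 1.46 (1.06 to 2.00). The ratio was 1.38 (0.911 to 2.06) in pancreatic progenitor-like and 1.62 (0.803 to 3.61) in hepatobiliary-like cells, and each interval alone includes 1. The median gene was 0.14 higher in KO on the log2 scale, and a median-of-ratios scaling shifted all genes by 0.20 on that scale, so part of this difference is shared with most genes. With that scaling Onecut3 was 0.29 higher (-0.09 to 0.69) on the log2 scale, an interval that includes 0. Thinned to 2000 UMIs per cell, Onecut3 measured 55.1 CPM in WT and 55.6 CPM in KO epithelial cells, from 14 and 8 UMIs.

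Onecut2 differed most between the genotypes, and it was higher in KO in 7 of the 8 clusters. Pancreatic progenitor-like cells held 251 UMIs in WT (170 CPM, 150 to 193) and 537 in KO (903 CPM, 828 to 983), a ratio of 5.30 (4.56 to 6.19). Hepatobiliary-like cells held 38 UMIs in WT (173 CPM, 123 to 238) and 276 in KO (463 CPM, 410 to 521), a ratio of 2.67 (1.90 to 3.86). Both epithelial clusters were thus higher in KO, and from like levels in WT the pancreatic cluster differed more. The hepatobiliary-like level was 1.02 times the pancreatic one in WT (0.704 to 1.44) and 0.513 times in KO (0.442 to 0.594).

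Of 5761 genes with at least 50 UMIs in cluster 1, Onecut2 had rank 8 from the top by KO over WT, where 1.89% of genes were higher in KO by 1 or more on the log2 scale with 10 CPM added. In the whole epithelium it had rank 9 of 6975, with 1.32% of genes that far up, and the level went from 171 to 683 CPM, a ratio of 4.0 (3.49 to 4.59). Onecut1 had rank 4932 and Onecut3 rank 977 in the same list. In cluster 5, where 2.31% of genes were that far up, Onecut2 had rank 15 of 2776.

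**Figure D2:**
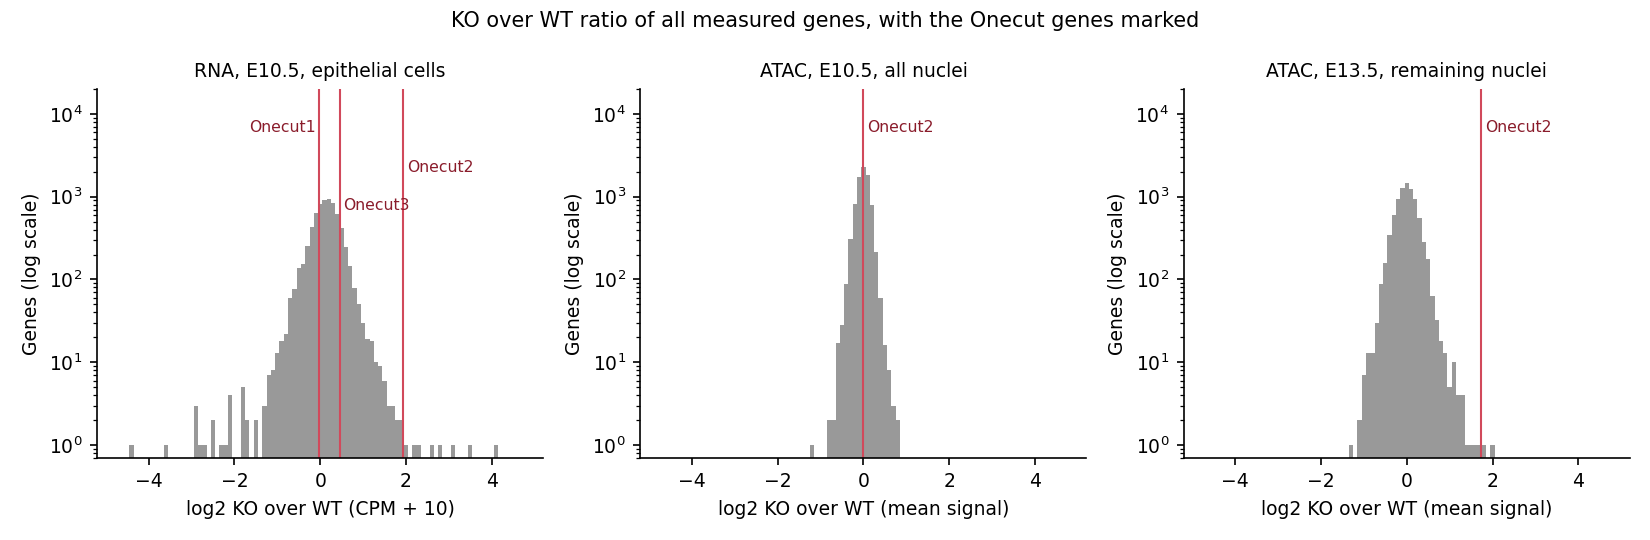
Number of genes (y axis, log scale) by their KO over WT ratio on the log2 scale (x axis) for RNA in epithelial cells at E10.5, ATAC gene signal in all nuclei at E10.5 and ATAC gene signal in the remaining nuclei at E13.5. Red lines mark Onecut1 at -0.02, Onecut3 at 0.46 and Onecut2 at 1.94 in RNA, and Onecut2 at -0.003 and 1.74 in the 2 ATAC panels.

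The Onecut2 difference was seen across single cells. Among pancreatic progenitor-like cells the lowest, median and highest counts were 0, 0 and 37 UMIs in WT and 0, 13 and 42 UMIs in KO. The ranges overlapped, but a UMI was seen in 54 of 111 WT cells, a share of 48.6% with an interval of 39.0 to 58.3. In KO the share was 34 of 37 cells, or 91.9%, with an interval of 78.1 to 98.3. Counts of 5 or more were seen in 13 WT and 27 KO cells. With each cell thinned to 2000 UMIs, which leaves out 2 WT and 3 KO shallower cells, the shares were 20.2% and 79.4% and the levels 156 and 1044 CPM. Among hepatobiliary-like cells the median count was 1 UMI in WT and 4 in KO, with highest counts of 9 and 49. These cells were deeper in KO, with a median of 15614.5 UMIs against 9319.5 in WT.

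In WT, Onecut2 was uneven between cells: the 3 pancreatic progenitor-like cells with most held 32.7% of the cluster's Onecut2 UMIs. A finer clustering of all cells gave pancreatic progenitor-like groups that were close to cluster 1 but not an exact split of it. The first held 58 WT cells. Over its WT and KO cells together it was led by Spp1, a secreted phosphoprotein of duct progenitors. The other held 53 WT cells, with P2rx1 and Ptf1a among its leading genes. The protease gene Cpa1 was among the leading genes of both. In WT, Ptf1a measured 72.2 CPM in the first and 75.9 CPM in the other, and Cpa1 264 and 218 CPM, with overlapping intervals. WT Spp1 measured 161 CPM (136 to 189) in the first and 139 CPM (109 to 174) in the other, so it did not separate the WT cells. In the KO cells of the first group Spp1 measured 502 CPM. Onecut2 measured 216 CPM (187 to 248) in the WT cells of the first and 94.4 CPM (70.3 to 124) in those of the other. Nearly all KO cells of these groups, 34 beside 3, fell into the first group. There Onecut2 went from 216 CPM to 914 CPM, a ratio of 4.24 (3.6 to 5.02). The Onecut2 difference was therefore present within the group of WT cells that the KO cells clustered with. In that group Onecut1 went from 61.4 to 39.5 CPM (ratio 0.644, 0.378 to 1.06).

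WT pancreatic progenitor-like cells grouped by their own Onecut2 count gave the paralogues and Ptf1a beside it. Ptf1a measured 82.8 CPM (62.7 to 107) in the 57 cells without an Onecut2 UMI, 79.0 CPM in the 35 cells with 1 or 2 and 42.7 CPM (22.7 to 73.0) in the 19 cells with 3 or more. Onecut3 went the other way, with 31.9 CPM (20.02 to 48.4), 54.0 CPM and 78.8 CPM (50.5 to 117), and Onecut1 changed least, with 50.8, 54.0 and 59.1 CPM. The outer intervals overlap for Ptf1a and do not for Onecut3. The cells with 3 or more were somewhat deeper, with a median of 15734 UMIs against 12561.

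**Figure D3:**
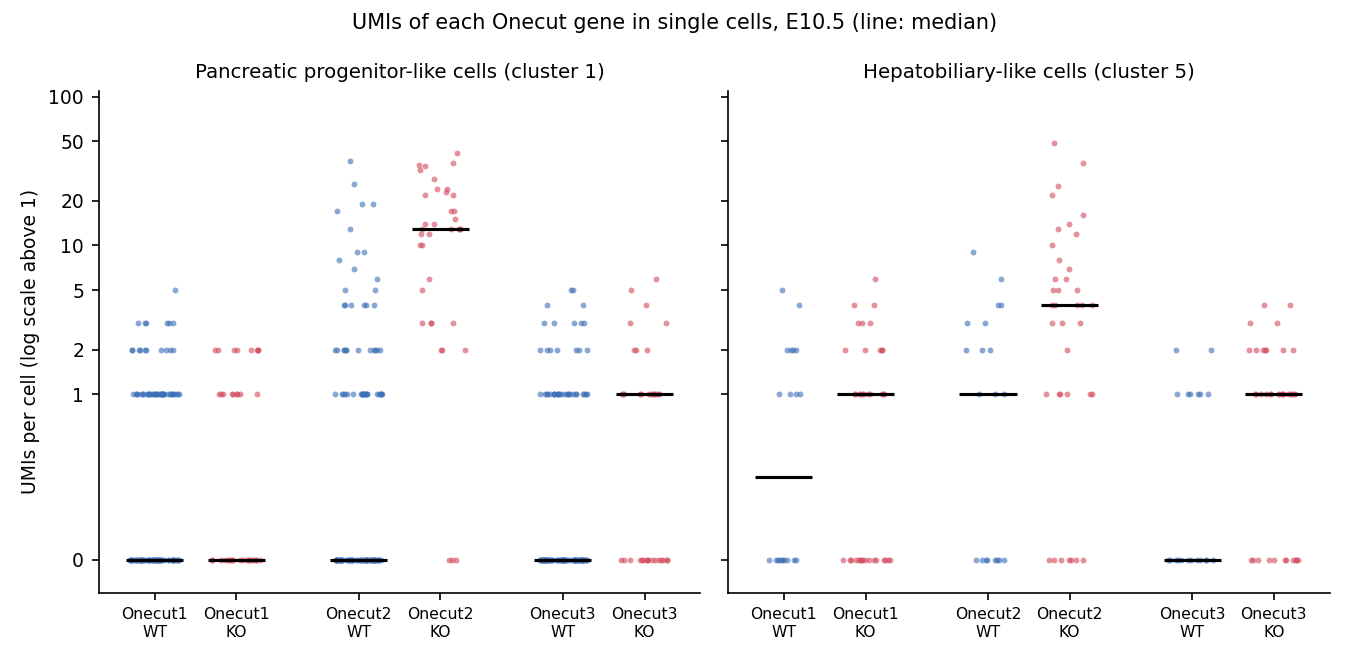
UMIs per cell (y axis, linear to 1 and log above) of the 3 Onecut genes in pancreatic progenitor-like and hepatobiliary-like cells at E10.5, with each point 1 cell and the black line the median. The Onecut2 median is 0 in WT and 13 in KO pancreatic progenitor-like cells, and 1 and 4 in hepatobiliary-like cells, while Onecut1 and Onecut3 cells stay at 6 UMIs or fewer.

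Co-detection of the paralogues was counted in epithelial cells. Onecut1 and Onecut2 UMIs were found together in 36 of 131 WT epithelial cells (27.5%) and 34 of 75 KO cells (45.3%). Independent detection would give 24.2% and 45.1%. In WT, Onecut3 was found with Onecut1 in 23.7% and with Onecut2 in 23.7% of epithelial cells, where independence would give 18.0% and 18.8%. In KO these shares were 37.3% and 58.7%, beside 33.3% and 55.5%. The independent values take no account of differences in depth between cells. All 3 genes were found in 21 WT and 25 KO cells, and none in 30 and 4. Thinned to 2000 UMIs, the Onecut1 and Onecut2 pair was left in 4.72% (1.75 to 10.0) of WT and 5.56% (1.53 to 13.6) of KO cells. These shares rest on 6 WT and 4 KO cells, too few to tell whether co-detection differed at equal depth. In WT hepatobiliary-like cells, all 10 cells with an Onecut1 UMI also had an Onecut2 UMI, against 2 of the 10 without, and the 8 cells without Onecut2 were shallow, with a median of 3146 UMIs.

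Of the family's UMIs in epithelial cells, Onecut2 made up 61.4% in WT (56.8 to 65.8) and 84.2% in KO (81.7 to 86.4). Onecut1 went from 21.2% to 7.14% and Onecut3 from 17.4% to 8.70%. Capture can differ between genes, so the change of each share, not its size, is what these values describe.

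Outside the epithelium Onecut2 levels were lower, and most overlapped the level of barcodes with few genes, given further on. In WT the order was 173 CPM in hepatobiliary-like and 170 in pancreatic progenitor-like cells, then 86.3 in cluster 0, 85.5 in cluster 7, 82.5 in cluster 6, 67.8 in cluster 4, 42.8 in cluster 2 and 34.4 in cluster 3. Of neighbours in this order, only cluster 1 and cluster 0 had intervals that did not overlap, and cluster 6, with 8 UMIs, overlapped both epithelial clusters and cluster 7 the hepatobiliary-like one. In KO the order was 903, 463, 428 (cluster 0), 210 (cluster 6), 141 (cluster 3), 140 (cluster 2), 120 (cluster 4) and 28.0 CPM (cluster 7). There the intervals separated cluster 1 from cluster 5, cluster 0 from cluster 6, and cluster 4 from cluster 7.

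The endocrine-like cells as a class went from 37 UMIs (54.4 CPM) in WT to 168 (128 CPM) in KO, a ratio of 2.34 (1.63 to 3.44). Onecut2 had rank 14 of 6009 genes there, and 0.399% of genes were higher in KO by 1 or more on the log2 scale. The ratio was 4.11 (2.34 to 7.79) in cluster 3 and 2.55 (1.21 to 6.19) in the Neurog3-led cluster 6. In the hormone-led cluster 7 it was 0.327 (0.126 to 0.799), from 15 UMIs in WT, 12 of them in 1 cell, and 9 in KO. Thinned to 2000 UMIs per cell, the class measured 71.4 and 96.8 CPM, from 8 and 24 UMIs, so the difference at equal depth rests on few molecules.

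Mesenchyme-like cluster 0 went from 74 Onecut2 UMIs (86.3 CPM, 67.8 to 108) in WT to 258 (428 CPM, 377 to 483) in KO, a ratio of 4.96 (3.81 to 6.51). Onecut2 had rank 2 of 5024 genes in this cluster, where 0.537% of genes were that far up. A UMI was seen in 21.1% of 152 WT and 47.5% of 99 KO cells, and 5 or more in 3 and 19 cells. Markers of other cell types differed beside it: Krt8 went from 197 to 461 CPM, Krt18 from 182 to 391 CPM and Spp1 from 28.0 to 121 CPM, while Epcam measured 205 and 224 CPM. The 7 endothelial markers summed to 50.1 CPM in WT and 121 CPM in KO, and the 10 neural markers to 80.5 and 144 CPM. The 12 mesenchymal markers summed to 1815 CPM in WT and 2009.5 CPM in KO, and the 9 pancreatic progenitor markers to 507 and 373 CPM, with Ptf1a at 0 in KO. The part of RNA from other cell types in this result was not tested. Onecut1 in the same cells measured 15.2 and 18.2 CPM and Onecut3 23.3 and 13.3 CPM.

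Barcodes under 1000 genes, which were left out as cells, gave a level for comparison. Whether they were empty was not tested, and they may include shallow cells. Without the minimum of genes, the pancreatic progenitor-like cluster held 145 WT and 105 KO barcodes, beside 131 and 75 kept epithelial cells. The barcodes under 1000 genes held 27 Onecut2 UMIs in WT (48.3 CPM, 31.9 to 70.3) and 51 in KO (146 CPM, 109 to 193). The Onecut2 levels of WT clusters 2, 3, 4, 6, 7 and of KO clusters 2, 3, 4 and 6 overlapped these intervals, as did the endocrine-like class in both libraries. They cannot be told apart from the level of such barcodes. KO cluster 7 lay below them. The pancreatic progenitor-like and hepatobiliary-like levels lay above them in both libraries, and the cluster 0 level did so in KO and overlapped them in WT. Onecut3 in the same barcodes measured 19.7 CPM (9.83 to 35.2) in WT and 5.74 CPM (0.695 to 20.7) in KO, which overlapped cluster 0 in both libraries and clusters 2 and 5 in WT. Onecut1 measured 3.58 CPM (0.434 to 12.9) in WT and 5.74 CPM in KO, which overlapped cluster 0 in both libraries and neither epithelial cluster.

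The profile of each gene over 14 sums of 1 cluster in 1 library was compared with all others, as a description that shares libraries and depth. Onecut1 and Onecut3 were alike (Pearson r 0.925), while Onecut2 correlated less with Onecut1 (0.487) and Onecut3 (0.629). The genes most like Onecut1 were Nr5a2, a nuclear receptor of pancreas and liver (0.945), Slc2a2, a glucose transporter (0.941), Vps36, Sdc4 and Habp2. Those most like Onecut2 were Zfp811 (0.908), Rtn4, Slc2a3, Slc4a4 and Mmp11. Those most like Onecut3 were Sdc4 (0.935), Habp2, Arl6ip1, St14 and Frem2.

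Regulators that act with Onecut factors did not share one direction in the epithelium. Of 16, 12 had at least 50 UMIs, 2 were higher in KO by 1 or more on the log2 scale and 0 were lower, beside 1.32% and 0.688% of all genes, with a median of 0.42 against 0.14 over all genes. The higher ones were Hhex, which specifies liver and bile duct (63.8 CPM in WT and 244 CPM in KO), and the pioneer factor Foxa1 (12.99 and 47.0 CPM). Pdx1, the pancreatic homeobox factor, was the lowest, with 218 CPM in WT and 117 CPM in KO. Foxa2, another forkhead factor of the endoderm, measured 109 and 118 CPM.

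Of 16 genes described as depending on Onecut factors, 8 passed the minimum, 1 was higher (the transthyretin gene Ttr, 409 CPM in WT and 1081 CPM in KO) and 0 were lower, beside 1.32% of all genes higher, with a median of 0.39. The lowest was the E-cadherin gene Cdh1, with 106 and 76.4 CPM. Of 16 biliary and duct genes, 12 passed, 4 were higher (Cdh6, Sox17, Krt19 and Krt18) and 0 were lower, beside the same 1.32% of all genes, with a median of 0.66. The highest was Cdh6, a cadherin, with 25.4 and 106 CPM, and the lowest was Sox9, with 629 and 473 CPM. Of 13 tip and acinar genes, 5 passed and 3 were lower by 1 or more, as were 0.688% of all genes. Among the 3 were Ptf1a itself, from 108 UMIs to 0, and Cpa1, from 380 UMIs to 1. Both passed the minimum through their WT counts alone. The highest of the list was Gata4 at 0.48. The KO epithelium held a larger part of hepatobiliary-like cells, 38 of 75 against 20 of 131, which moves with these counts. Within cluster 5 alone 6 of 16, 4 of 16, 7 of 16 and 1 of 13 genes of the 4 lists, in this order, passed the minimum. None of these passed log2 1 in either direction (2.59% of all genes did), and most listed genes could not be assessed there. Within cluster 1 alone 1.89% of all genes were higher. There 3 of 11 regulators, 2 of 8 genes described as depending on Onecut factors and 5 of 10 biliary and duct genes were higher. Of 5 tip and acinar genes 1 was higher, and the median of the 5 was -2.60 against 0.17 over all genes.

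In the endocrine-like class 7 of the 16 regulators passed the minimum and none passed log2 1, which 0.566% of all genes did in either direction. The highest was Neurog3, the endocrine progenitor factor, with 42 UMIs in WT and 168 in KO (0.94), and the lowest Pdx1 (-0.88).

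Chromatin accessibility is given as a gene signal, a deposited value per gene and nucleus that sums to 10000 in every nucleus. Onecut1 and Onecut3 were not analysed here for accessibility. The E10.5 matrix held 838 WT and 700 KO nuclei, and the E13.5 matrix 2314 and 602. The 2 genotypes at E13.5 carry different months in their nucleus names, and month cannot be told apart from genotype at that stage. At E10.5 cluster 2 (60 and 65 nuclei) was endocrine-like. At E13.5 cluster 2 (372 and 49) was endocrine-like and cluster 3 (140 and 272) blood-like. The nuclei outside these clusters are called the remaining nuclei. They include E13.5 cluster 1 (622 and 44), which has few genes above 0 and stayed unnamed, with 9 of 17 endocrine markers raised. At E13.5 their 8 listed pancreatic progenitor markers summed to a mean signal of 36.3 in WT and 26.2 in KO, and their 12 mesenchymal markers to 14.2 in both. Their 5 listed gut markers went the other way, with 7.40 in WT and 10.2 in KO. The part of a different mix of cells in the signal ratios below was not tested. For Ptf1a itself, of which only an enhancer is deleted, the mean signal was 2.43 in WT and 1.70 in KO at E10.5, and 4.53 and 1.90 in the remaining nuclei at E13.5.

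At E10.5 the Onecut2 signal did not separate the genotypes. The mean was 1.91 in 838 WT and 1.91 in 700 KO nuclei (-0.003 on the log2 scale, rank 4145 of 8219 genes). In this comparison 0% of genes were higher and 0.0122% lower by 1 or more. In cluster 0, the deeper of the remaining nuclei, the mean was 1.89 in WT and 2.11 in KO, and the share of nuclei above 0 was 87.0% and 92.5%, a difference of 5.53 points (1.61 to 9.41) beside a median of 5708 and 6024 genes above 0. In cluster 1, nuclei with few genes, it was 2.02 and 1.58, and in endocrine-like nuclei 1.62 and 1.56. At this stage Onecut2 RNA differed by 4.0 times in the epithelium while its gene signal over all nuclei was alike, though the RNA and ATAC libraries came from separate cells and different cell classes.

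At E13.5 the Onecut2 signal was higher in KO. In remaining nuclei the mean was 0.852 in 1802 WT and 2.85 in 281 KO nuclei, a ratio of 3.34 and rank 3 of 8226 genes, where 0.328% were higher in KO by 1 or more on the log2 scale. The share of nuclei above 0 was 39.7% (37.5 to 42.0) in WT and 81.5% (76.5 to 85.9) in KO. In cluster 0, where 0.182% of genes were that far up, the means were 0.862 and 2.84, a ratio of 3.30 and rank 1 of 8229. KO nuclei were deeper there, with a median of 5884 genes above 0 against 4119. Within 5 bins of remaining nuclei by genes above 0, the ratio lay between 2.75 and 5.58.

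The signal was spread over many KO nuclei. In cluster 0 it passed 2 in 14.3% of WT and 60.3% of KO nuclei, and 5 in 1.61% and 12.2%. Endocrine-like nuclei showed a smaller difference, with a mean of 0.969 in 372 WT and 1.62 in 49 KO nuclei (ratio 1.67, rank 276 of 8217). It was under log2 1, which 1.23% of genes passed in KO. Blood-like nuclei, taken as a class without Onecut2, had 0.262 and 0.276, with 28.6% and 34.9% of nuclei above 0. That level is the background beside which the WT remaining mean of 0.852 stands.

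**Figure D4:**
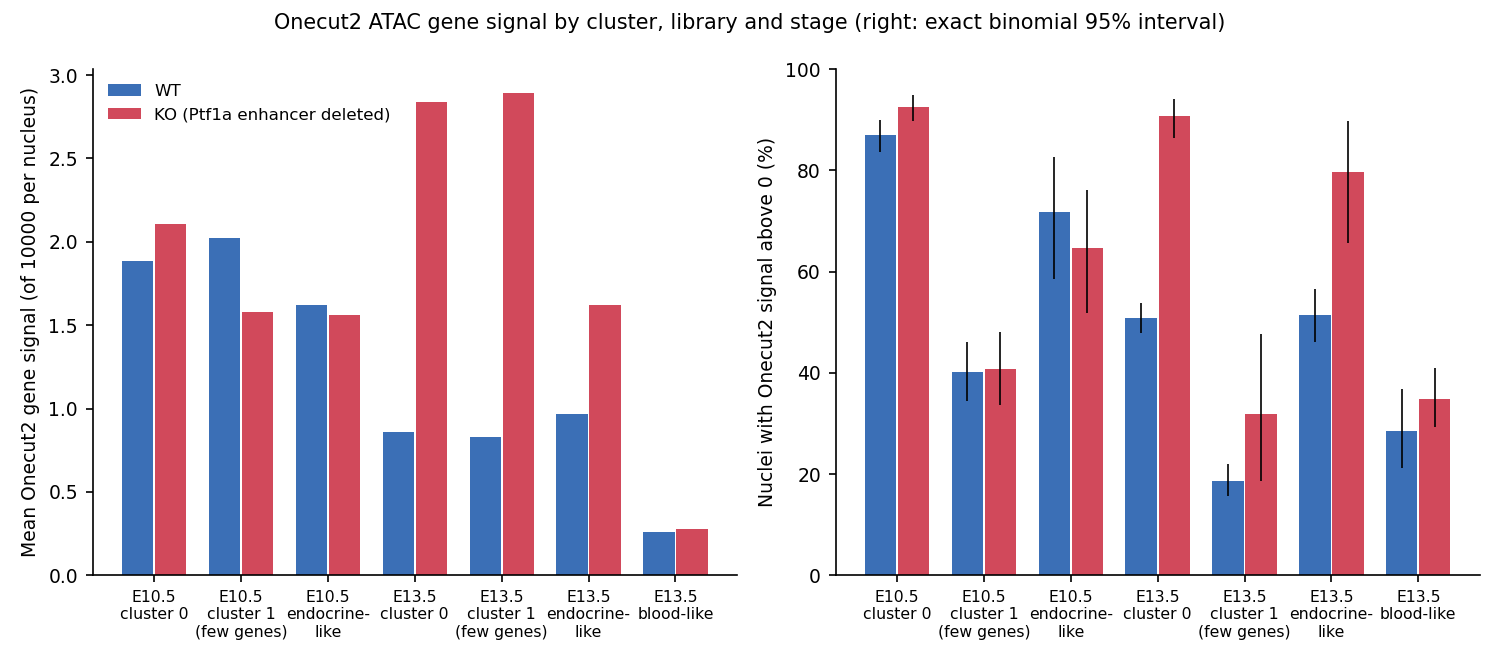
Onecut2 ATAC gene signal in each cluster of nuclei at E10.5 and E13.5 for 1 WT (blue) and 1 KO (red) library. The left panel shows the mean signal (a share of 10000 per nucleus) and the right panel the percent of nuclei above 0 with exact binomial 95% intervals. The genotypes lie close together at E10.5, and at E13.5 the KO means of clusters 0 and 1 are 2.84 and 2.89 beside 0.862 and 0.832 in WT.

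Between the stages the Onecut2 signal was lower at E13.5 in WT and higher in KO. In WT remaining nuclei the mean was 1.94 at E10.5 and 0.852 at E13.5 (-1.19 on the log2 scale), the rank 17 from the bottom of 8213 genes, with 0.317% lower by 1 or more. In KO it was 1.95 and 2.85 (0.55), rank 207 from the top of 8228 genes, with 0.194% higher by 1 or more. Endocrine-like nuclei gave -0.74 in WT and 0.05 in KO. Over all KO nuclei the value was -0.27, with the blood-like nuclei included. Stage and library cannot be told apart, and the WT and KO libraries of a stage are shared between these values and the genotype ratios above.

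Genes beside Onecut2 on its chromosome were looked at because gene signals of neighbours can share reads. Gaps to Onecut2 are given in brackets. In cluster 0 at E13.5 the KO over WT signal ratio was 2.52 for St8sia3 (63.9 kb), a sialyltransferase gene and the nearest gene looked at on one side. It was 1.92 for Wdr7 beyond it (350 kb). On the other side it was 1.48 for Fech (58.1 kb), a haem synthesis gene, and 1.43 for Nars next to it (101 kb). It was 1.11 for Txnl1 (648 kb) and 0.898 for Atp8b1 (130 kb), the farthest looked at on either side. At E10.5 the same ratios were 1.07 for St8sia3, 0.995 for Wdr7 and 1.33 for Fech. In RNA of E10.5 epithelial cells St8sia3 had 41 UMIs in WT (24.2 CPM) and 94 in KO (78.9 CPM), a ratio of 3.26 (2.24 to 4.83), and Fech had 10 and 24 UMIs, a ratio of 3.41 (1.57 to 8.0). The ratio was 1.03 (0.873 to 1.21) for Txnl1, 0.728 (0.585 to 0.902) for Nars, 0.978 (0.41 to 2.24) for Atp8b1 and 0.379 (0.0916 to 1.19) for Wdr7, from 15 and 4 UMIs. For Nars and Wdr7 the RNA ratio at E10.5 lay below 1 and the signal ratio at E13.5 above 1. These values differ in assay and in the cells used as well as in stage, so they do not show a stage difference. The Wdr7 RNA interval includes 1. The E10.5 signal ratio was 0.871 for Nars and 0.981 for Wdr7 in the remaining nuclei, and 1.01 for Nars in cluster 0. Wdr7 was also the gene whose signal over 14 means of 1 cluster in 1 library was most like that of Onecut2 (Pearson r 0.976), followed by Uaca, Ndufa9, Pcbd2 and the liver and bile duct factor Tbx3.

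The regulators of the Onecut list had no member past log2 1 in the E13.5 remaining nuclei, with 14 of 16 listed and passed, while 0.389% of all genes were past it in either direction. The highest was Tbx3 (0.86) and the lowest Neurog3 (-0.48). Of 10 listed tip and acinar genes 1 was lower, Ptf1a itself (-1.25), where 0.0608% of all genes were lower by 1 or more.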

How the data were processed

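Members and gene lists were chosen with earlier results of these data known. RNA values are UMI counts per gene and cell, deposited by the authors as a sparse matrix. ATAC values are a gene signal, deposited by the authors and scaled to 10000 per nucleus per the file's own sums. The tool and window behind it were not named in the labels or file headers. Per the submitters' processing notes the build was mm10. Cells with at least 1000 genes were kept and clustered with scanpy 1.11.5 and leidenalg 0.10.2 (2000 variable genes, 30 components, 15 neighbours, resolution 0.5 for RNA and 0.3 for ATAC), leaving out the Onecut, Ptf1a and tip and acinar genes. Cluster names followed fixed markers by a rule settled after the clusters were seen. Scrublet called 4 WT and 5 KO doublets, which were kept, and no mitochondrial symbols were listed. The RNA libraries shared 1 cell barcode and pairs of ATAC libraries 0 to 4. Ratios of counts carry exact conditional intervals, levels exact Poisson, shares exact binomial and differences of shares Newcombe intervals, with scipy 1.17.1. Log2 ratios of RNA used 10 CPM added and genes with at least 50 UMIs. ATAC ratios used means of genes above 0 in at least 10% of nuclei. Genes named were the 3 members, Ptf1a, the highest and lowest of each list and the 5 most like each member. Neighbouring genes, genes past log2 1, Foxa2 and the keratins were chosen after their values were seen. The interval methods were tested on simulated data.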

Additional observations from a re-analysis of the deposited data

Results flagged for a closer look

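Onecut2 RNA moved the other way in 1 cluster. In the hormone-led endocrine-like cluster 7 the KO over WT value was -1.33 on the log2 scale, while it was above 0 in the 7 other clusters. The difference between clusters was not tested, and 12 of the 15 WT UMIs came from 1 cell. Onecut3 RNA was lower in KO in mesenchyme-like cluster 0 (-0.52, from 20 and 8 UMIs) and higher in hepatobiliary-like cells (0.59, from 10 and 44 UMIs), also without a test of the difference.

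The Onecut2 gene signal went in opposite directions between the stages, by -1.19 in WT and by 0.55 in KO remaining nuclei. With 1 library for each genotype and stage this difference was not tested.

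Barcodes with under 1000 genes, which were left out of the genotype comparisons reported, held Onecut2 at 146 CPM in KO and 48.3 CPM in WT.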

How the results depend on the processing

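No paired analysis was possible because each group held 1 library. Of 105 alternative values for 15 results, 67 stayed within the counting interval of the value reported, 38 did not or had no interval, and 0 turned the direction of a value that was past log2 1. That last count leaves out smaller values, some of which changed sign. The sign was kept in 4 of 5 alternatives for the Onecut2 signal between stages in KO and in 2 of 5 for the E10.5 signal. It was kept in 10 of 12 for Onecut1 RNA in epithelial cells. For Onecut2 RNA in WT hepatobiliary-like over pancreatic cells it was kept in 3 of 4. For Onecut2 RNA in epithelial cells (1.94) the log2 value was 2.16 with no minimum of genes, 1.75 with a median-of-ratios factor, 2.31 with cells thinned to 2000 UMIs, 2.18 without the 3 cells of each library with most of its UMIs, 2.34 in pancreatic progenitor-like and 1.37 in hepatobiliary-like cells. The last 3 settings, the mean over cells and every ATAC value by cluster 0 or by depth bin were chosen after seeing the data, as was the rule that calls a cluster epithelial at other resolutions when most of its cells are in the class used here. Thinning gave -0.60 for Onecut1 (-0.02 reported) and 0.0097 for Onecut3 (0.46 reported) in epithelial cells, 0.39 for Onecut2 (1.09) in endocrine-like cells and, for hepatobiliary-like over pancreatic cells, -0.83 for Onecut2 in WT (0.02), 0.085 for Onecut1 in WT (0.73) and 0.21 for Onecut1 in KO (0.69). Cells with both Onecut1 and Onecut2 fell to 4.72% in WT and 5.56% in KO when thinned, and to 33.3% in KO with no minimum of genes. Onecut1 in endocrine-like cells (-0.69, from 5 and 1 UMIs) was -2.25 with 1 CPM added, -0.92 thinned, -0.80 without doublets and -0.80 as a mean over cells.

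For Onecut2 ATAC signal, leaving out 10% of nuclei at each end of depth gave -0.011 at E10.5, 1.89 at E13.5, -1.20 between stages in WT and 0.69 in KO. The share of nuclei above 0 in place of the mean gave 0.11, 1.04, -0.81 and 0.088. Clustering at 0.5 gave 1.75, -1.20 and 0.55 for the last 3. Cluster 0 of each stage gave 0.16, 1.72, -1.13 and 0.43, and a mean over depth bins -0.0043 and 1.78 for the genotypes. Nuclei outside the endocrine-like cluster gave 0.0064 at E10.5, and all nuclei 0.93, -1.20 and -0.27. The hepatobiliary-like ratio had no value at resolution 0.3, with all genes used to cluster, or with no minimum of genes, where no such cluster was named, and the median-of-ratios factor was not run on it. Depth limits Onecut1 and Onecut3 most, since they have at most 100 UMIs in the epithelium of a library.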
